A study of Homo sapiens with 40 samples.

Results

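The 6 arrays described here hold RNA of LNCaP clones 1, 19 and 24 from the replicate 1 set. Each clone gave 1 array after 24 h in 10 µM MDV3100 and 1 array after 24 h in 0.1% DMSO. They are 6 of 40 arrays and 3 of 10 lines. LNCaP is a human prostate cancer cell line that grows in response to androgen, MDV3100 is the antiandrogen enzalutamide, and DMSO is its solvent. All lines grew in serum-containing medium and were seeded 3 days before treatment. The labels call these clones resistant and insensitive to the drug, as they do the other resistant clones, 9, 10, 14 and 15. Set against them are 3 control LNCaP lines labelled sensitive, with the titles D+E- (control 1 below), D+R- (control 2) and M+R- (control 3). The labels explain neither those titles nor how the clones were derived, so each clone is 1 line of unstated origin. Nothing in them says that the replicates came from separate cultures. Each test below was made within 1 replicate set, with 1 array per line and treatment. The p-values therefore reflect how the difference between MDV3100 and DMSO varied between lines, and part or all of this spread may be technical.

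The clones were chosen by their own response to the drug. A response is the MDV3100 value minus the DMSO value of the same line and replicate, on the log2(signal + 16) scale. Over the 33 measured of 40 listed androgen-induced genes, the mean response was -0.16 in clone 1, -0.11 in clone 19 and -0.14 in clone 24. The nearest clone outside the choice was clone 15 at -0.37, and clones 9, 10 and 14 lay at -0.73, -0.71 and -0.69. The control lines of the same set lay at -0.77, -0.74 and -0.77. Because these values made the choice, differences between MDV3100 and DMSO in the 6 arrays are given below as descriptions, with no test. Tests come from the replicate 2 arrays labelled as the same clones and from the control lines.

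The androgen receptor is a nuclear hormone receptor that binds DNA once androgen has bound it, and in luminal prostate cells it switches on secreted proteases, lipid enzymes and growth genes. Enzalutamide competes with androgen for the receptor, hinders its entry into the nucleus and lowers its binding to DNA. In sensitive LNCaP cells the drug therefore lowers KLK3, which encodes prostate-specific antigen, and its relatives, and slows the cell cycle.

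The 2%-trimmed mean signal was 150 on each of the 6 arrays, and the median signal was 15.9 on the MDV3100 array of clone 1, against 11.5 to 12.9 on the other 5. Of all 40 arrays only the MDV3100 array of clone 15 in replicate 1 had a higher median, 18.4. On the 6 arrays, the 3'/5' signal ratio of the actin control probes was 3.68 to 4.27 on the MDV3100 arrays and 3.39 to 4.77 on the DMSO arrays. All 8 luminal markers passed the filter on low signal, with summed signals of 11180 to 16580 in MDV3100 and 11520 to 14160 in DMSO. Of the 4 basal markers KRT5, KRT14, KRT15 and TP63 and of the immune markers none passed it, while DST of the longer basal list did. In addition, 1 endothelial marker (VWF) and 3 of 6 mesenchymal markers did. Of the basal keratins, KRT5 had signals of at most 8.2 and KRT15 of at most 10 on the 6 arrays. KRT14 had 13.6 to 15.2 in MDV3100 and 6.1 to 27.3 in DMSO. It reached the filter signal of 12.1 on some of the 6 arrays, as the filter uses the mean of all 40. Labels and profiles did not always go together. In profiles averaged over both treatments and centred per gene across the 40 arrays, clone 1 of replicate 1 correlated with its own label in replicate 2 at r = 0.09, across genes, and best with control 2 of replicate 2, at r = 0.75. Clones 19 and 24 correlated with their own labels at r = -0.50 and -0.51. Control lines 1, 2 and 3 correlated with their own labels at r = 0.10, -0.33 and -0.09. UGT2B17, which inactivates androgens by glucuronidation, had signals of 33.1 in MDV3100 and 23.3 in DMSO on the arrays labelled clone 1, replicate 1, against 1385 and 980.2 in replicate 2. Results are therefore also given without clone 1.

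Most androgen-induced genes stayed close to their DMSO level in these clones. KLK2, a secreted kallikrein protease, had signals of 2496, 2149 and 2030 in MDV3100, against 2091, 1938 and 2075 in DMSO (clones 1, 19 and 24, in this order throughout). The treated and untreated arrays overlapped, and the responses were 0.25, 0.15 and -0.03. In the control lines of the same set KLK2 fell by 1.98 on the same scale (SE 0.18, limma adjusted p = 0.000258). KLK3 had signals of 1535, 4548 and 1347 in MDV3100, against 995.5, 3793 and 1185 in DMSO. It was higher with the drug in each clone, and the arrays overlapped, with clone 19 above the other clones in both treatments. Its response was -0.74 in the control lines, which did not pass the test (limma adjusted p = 0.0962).

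TMPRSS2, a membrane serine protease whose promoter drives oncogenic fusions in many prostate tumours, had signals of 3452, 3193 and 2813 in MDV3100, against 3499, 2757 and 2991 in DMSO. The 6 arrays overlapped, with responses of -0.02, 0.21 and -0.09, whereas TMPRSS2 fell by 1.42 in the control lines (SE 0.19, limma adjusted p = 0.0044). FKBP5, a co-chaperone of steroid receptors, had signals of 1972, 1508 and 1833 in MDV3100, against 2189, 1639 and 2028 in DMSO. By this brightest probe set it was slightly lower with the drug in each clone, at -0.15, -0.12 and -0.14. The other FKBP5 probe sets were also negative in each clone and fell further, with mean responses of -0.25 and -0.28. PMEPA1, an inhibitor of TGF-beta signalling, had signals of 2408, 2768 and 1483 in MDV3100, against 1736, 1874 and 1326 in DMSO. Its responses by this brightest probe set, 0.47, 0.56 and 0.16, were all positive, while PMEPA1 fell by 1.20 in the control lines (SE 0.17, limma adjusted p = 0.00602). The other PMEPA1 probe sets were at 0.54, 0.49 and 0.13 and at 0.11, 0.20 and -0.05 in the clones.

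Of the 33 measured androgen-induced genes, 15 were negative and 5 positive in all 3 clones, where over all 11853 genes 13.9% were negative and 12.2% positive in all 3. The median response over the list was -0.10, against 0.00 over all genes, and -0.05 with clone 1 left out. In the control lines the list's median was -0.57, and 10 of its members fell with a limma adjusted p under 0.05, where 0.742% of all genes did. TRPM8 and ST6GALNAC1 alone of these 10 were lower by at least 0.3 in all 3 clones, where 0.329% of all genes were. The other 8 were KLK2, TMPRSS2, SLC45A3, PMEPA1, HPGD, C1orf116, NNMT and PTGER4. Their mean responses in the clones ran between -0.24 for C1orf116 and 0.40 for PMEPA1, against -1.98 for KLK2 to -1.19 for HPGD in the control lines. SLC45A3, a membrane transporter of prostate epithelium, was at 0.17, 0.02 and 0.05 in the clones. NNMT, a nicotinamide methyltransferase, was at 0.36, 0.22 and -0.01. IQGAP2, a scaffold protein of the cytoskeleton, was the third list member lower by 0.3 in all 3 clones, with signals of 118.8, 7.3 and 150.4 in MDV3100, against 215.7, 27.5 and 206.1 in DMSO. Clone 19 held much less IQGAP2 than the others in both treatments.

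**Figure D1:**
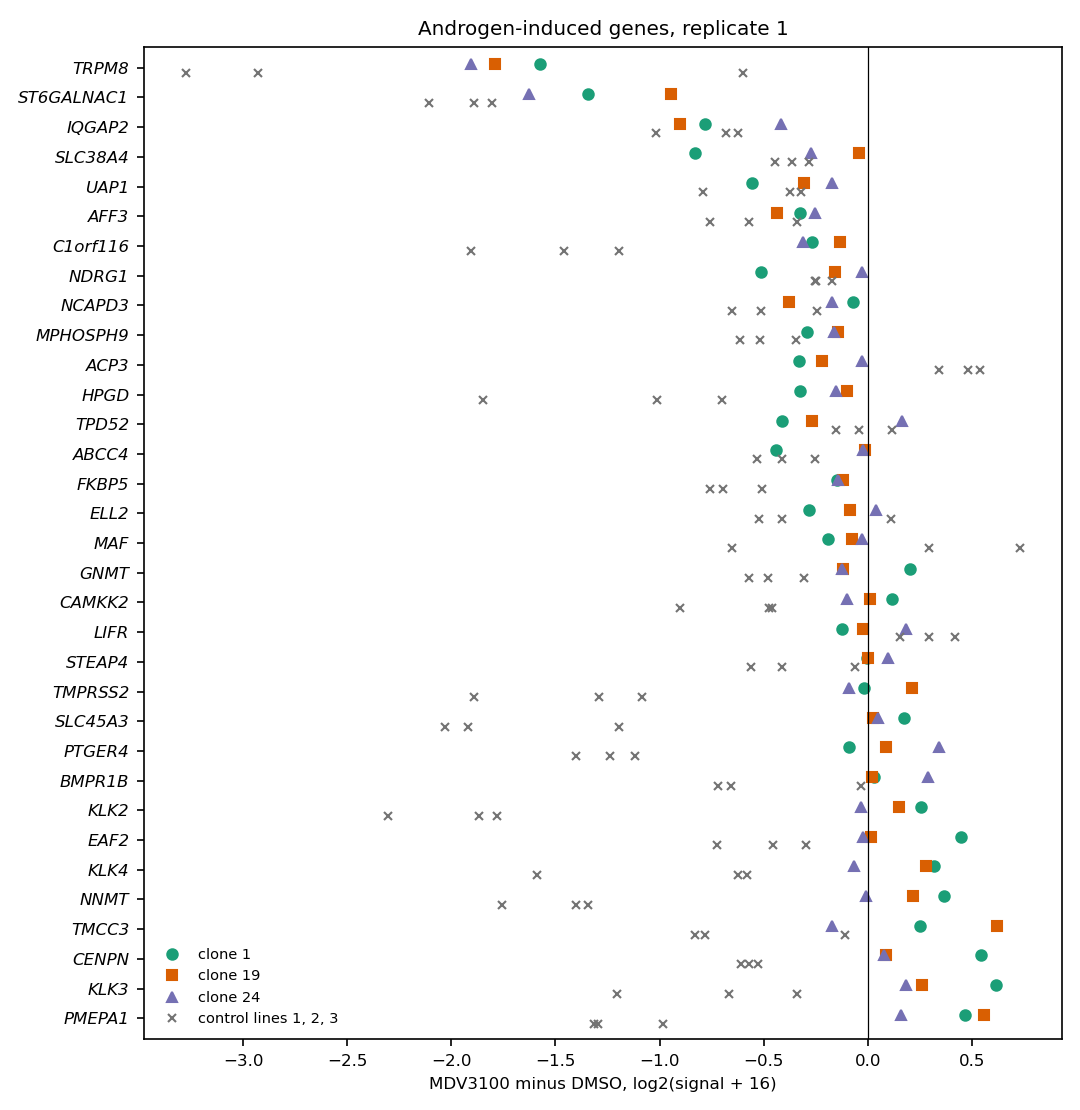
Responses of the 33 measured androgen-induced genes in replicate 1, as MDV3100 minus DMSO on the log2(signal + 16) scale. Coloured symbols are clones 1, 19 and 24, grey crosses are the 3 control lines, and genes run by their mean response in the clones. Most coloured symbols lie near 0 while the crosses of KLK2, TMPRSS2 and SLC45A3 lie far to the left, and TRPM8 and ST6GALNAC1 are low in the clones too.

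Promoters of 3 genes are printed to set KLK3, which was not lower with the drug in any of the clones, beside TRPM8 and ADH1C, which were lower in each and are described next. Each runs 250 bases before to 50 bases after the start of the gene, 5′ to 3′, from RefSeq on GRCh38.p14, and capitals mark AGAACA, the core half-site of the androgen receptor's binding element, searched on both strands (TGTTCT on the other). KLK3 lies at chr19:50854665-50854964, plus strand. TRPM8 lies at chr2:233917123-233917422, plus strand. ADH1C lies at chr4:99352697-99352996, minus strand.
KLK3: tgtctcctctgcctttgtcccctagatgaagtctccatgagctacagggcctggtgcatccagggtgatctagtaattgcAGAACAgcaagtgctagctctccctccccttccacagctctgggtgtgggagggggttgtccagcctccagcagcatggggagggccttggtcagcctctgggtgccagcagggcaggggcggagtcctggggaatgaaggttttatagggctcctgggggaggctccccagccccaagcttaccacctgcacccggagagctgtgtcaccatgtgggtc
TRPM8: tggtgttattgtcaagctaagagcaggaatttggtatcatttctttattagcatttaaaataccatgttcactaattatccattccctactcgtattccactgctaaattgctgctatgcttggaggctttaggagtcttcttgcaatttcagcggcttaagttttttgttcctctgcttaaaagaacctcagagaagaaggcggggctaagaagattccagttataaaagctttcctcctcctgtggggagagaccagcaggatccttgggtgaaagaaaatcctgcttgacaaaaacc
ADH1C: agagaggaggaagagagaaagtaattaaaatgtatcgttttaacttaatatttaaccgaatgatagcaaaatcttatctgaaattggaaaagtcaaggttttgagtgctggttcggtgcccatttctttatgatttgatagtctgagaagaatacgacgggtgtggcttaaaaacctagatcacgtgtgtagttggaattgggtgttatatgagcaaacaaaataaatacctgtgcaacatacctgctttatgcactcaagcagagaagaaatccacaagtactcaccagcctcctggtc
The motif begins 170 bases before the start in KLK3 and is not in the TRPM8 or ADH1C window. It was in 14.8% of all promoters of this length and in 8.76% of those of measured genes. Among genes lower by 0.3 in all 3 clones it was in 3 of the 29 with a promoter in the table (10.3%), among those higher in 4 of 34 (11.8%) and among the androgen-induced genes in 4 of 27 (14.8%). No sequence was found for ST6GALNAC1 or TMPRSS2. A match is a description of letters and not of binding.

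By the smallest response over the clones, the genes furthest below their DMSO level were TRPM8, ADH1C, ST6GALNAC1 and WWTR1. TRPM8, a cold-sensing calcium channel of prostate epithelium, had signals of 30.2, 119.2 and 38.4 in MDV3100, against 121.7, 451.6 and 188.0 in DMSO. Every clone was lower with the drug and all MDV3100 arrays lay below all DMSO arrays. The mean response was -1.76 ± 0.17 (SD, n = 3). ADH1C, an alcohol dehydrogenase, had signals of 12.7, 20.1 and 20.4 in MDV3100, against 70.6, 88.3 and 98.7 in DMSO. The groups did not overlap, and the mean response was -1.59 ± 0.06, with little difference between clones. ST6GALNAC1, the sialyltransferase that makes the sialyl-Tn antigen, had signals of 12.2, 8.9 and 3.7 in MDV3100, against 55.5, 31.9 and 44.9 in DMSO. It was lowest in treated clone 24 and did not overlap between treatments, with a mean response of -1.30 ± 0.34. WWTR1, the transcriptional coactivator TAZ of the Hippo pathway, had signals of 9.6, 4.6 and 6.2 in MDV3100, against 29.2, 28.2 and 24.6 in DMSO. It too did not overlap, with a mean response of -0.93 ± 0.15. The signals of ST6GALNAC1 and WWTR1 in MDV3100 were close to or below the filter signal of 12.1, so the added 16 understates these changes.

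All 4 genes fell in the control lines as well. Their control responses were -2.27 ± 0.38 for TRPM8, -2.11 ± 0.18 for ADH1C, -1.93 ± 0.17 for ST6GALNAC1 and -1.71 ± 0.16 for WWTR1 (estimate ± SE, n = 3 lines). Of the 4, TRPM8 varied most between control lines, at -2.93, -0.60 and -3.28 in controls 1, 2 and 3. The limma adjusted p was 0.0176 for TRPM8, 0.000235 for ADH1C, 0.000238 for ST6GALNAC1 and 0.000467 for WWTR1. In the replicate 2 control arrays 5 genes rose (0.0422%) and 9 fell (0.0759%), and these calls rest on the settings: there were 0 without the filter, after quantile normalization, without the block or without control 3. There, TRPM8 was at -2.27 (limma adjusted p = 0.00842), ADH1C at -2.17 (limma adjusted p = 0.00842), ST6GALNAC1 at -2.11 (limma adjusted p = 0.00842) and WWTR1 at -1.82 (limma adjusted p = 0.0134). Each of the 4 was further below 0 in the control mean than in the clones' mean, a difference not tested here because the clones were chosen on this contrast. In bulk RNA, a lower level in every cell and fewer cells with the transcript cannot be told apart.

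**Figure D2:**
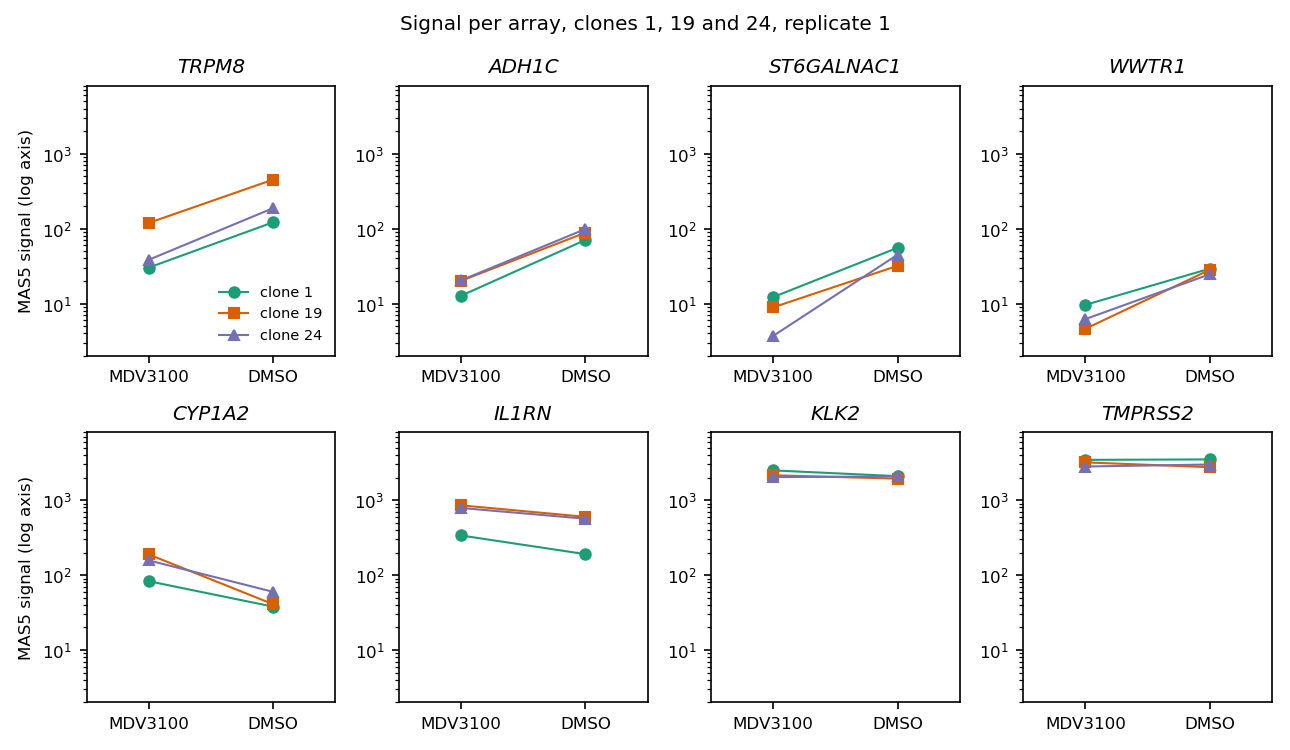
MAS5 signal on a log axis for 8 genes in clones 1, 19 and 24 of replicate 1, with MDV3100 at the left and DMSO at the right of each panel and a line per clone. TRPM8, ADH1C, ST6GALNAC1 and WWTR1 are lower with the drug in each clone, CYP1A2 and IL1RN are higher, and KLK2 and TMPRSS2 run nearly level.

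CYP1A2, a cytochrome P450 induced through the aryl hydrocarbon receptor, was the gene most clearly higher with the drug. Its signals were 82.8, 188.4 and 157.1 in MDV3100, against 37.9, 40.8 and 59.7 in DMSO. The groups did not overlap, and clone 19 had the largest response of 0.87, 1.85 and 1.19. CYP1A2 rose by 2.09 in the control lines (SE 0.17, limma adjusted p = 0.000235) and by 1.85 in those of replicate 2 (limma adjusted p = 0.0272). Other targets of that receptor gave a mixed picture. CYP1A1, CYP1B1 and AHRR were below the filter, with no signal above 6.8 on any of the 6 arrays, and TIPARP, a receptor-induced polymerase, was at -0.02, -0.40 and 0.05. NQO1, a quinone reductase that the receptor and NRF2 both induce, was at 0.25, 0.16 and 0.12. Its other probe sets were both at -0.24 in clone 1 and positive in clones 19 and 24. The probe set of CYP1A2 is of a type that can also catch related transcripts. Its 300-base promoter holds no GCGTG, the core of the receptor's binding element on either strand, which 36.5% of all promoters and 51.3% of those of measured genes hold.

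PRMT5-AS1, an antisense RNA gene at the arginine methyltransferase PRMT5, had signals of 43.8, 24.1 and 28.9 in MDV3100, against 7.6, 6.3 and 6.2 in DMSO. All MDV3100 arrays lay above all DMSO arrays, with a mean response of 1.07 ± 0.25. Its DMSO signals were below the filter signal of 12.1, so the added 16 bears on the size of this value. In the control lines its response of 0.33 did not pass the test (limma adjusted p = 0.469). IL1RN, the secreted antagonist of the interleukin-1 receptor, had signals of 337.9, 853.1 and 786.8 in MDV3100, against 190.4, 599.3 and 565.5 in DMSO. Clone 1 held less of it in both treatments and the groups overlapped. The responses were 0.78, 0.50 and 0.47. IL1RN rose by 1.40 in the control lines (SE 0.21, limma adjusted p = 0.00833). MID1, a ubiquitin ligase on microtubules, was higher with the drug in each clone by its brightest probe set, but its responses of 0.44, 1.33 and 0.51 varied widely. Its other probe sets were at 0.23, 1.17 and 0.35 and at 0.12, -0.23 and -0.14. By the brightest probe set MID1 rose by 1.62 in the control lines (SE 0.17, limma adjusted p = 0.000742).

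In all, 45 of 11853 genes were higher by at least 0.3 in all 3 clones (0.380%) and 39 were lower (0.329%). Without clone 1 the counts over the other clones were 114 and 119. These counts describe the contrast that chose the clones and nothing is read from them. The MDV3100 arrays were all above the DMSO arrays for 249 genes (2.10%), 21 of the 45 among them, and all below for 286 (2.41%), 20 of the 39 among them.

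Others of the 15 highest genes by the smallest response over the clones were as follows. DAB1, an adaptor of reelin signalling, had signals of 101.9, 381.1 and 222.0 in MDV3100, against 63.2, 196.1 and 112.3 in DMSO. RFX6, a transcription factor of endocrine cell differentiation, had 54.4, 33.9 and 87.2 in MDV3100, against 22.8, 19.9 and 43.0 in DMSO. BIK, a cell death promoter of the BCL2 family, had 131.5, 108.9 and 103.1 in MDV3100, against 62.2, 77.6 and 71.7 in DMSO, and its groups did not overlap. APOL1, a lipoprotein component that kills trypanosomes, was higher in every clone but overlapped, with 53.2, 33.0 and 13.1 in MDV3100, against 28.7, 12.6 and 4.4 in DMSO. CYRIA, an inhibitor of Rac1 signalling, had responses of 0.45, 1.09 and 0.71, against -0.56 in the control lines (limma adjusted p = 0.131). ELAPOR1, PRSS2, GARIN4, C2orf81, CCDC120 and LOC105378948 had mean responses between 0.46 and 0.67. PRSS2 encodes a trypsinogen with close paralogues that can share its probes.

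Others of the 15 lowest genes by the same measure were as follows. NPNT, the matrix protein nephronectin, had signals of 5.8, 0.6 and 16.7 in MDV3100, against 39.2, 10.9 and 44.5 in DMSO. With the drug, clones 1 and 19 were below the filter signal of 12.1 for NPNT, so the added 16 bears on its response. ELOVL7, an elongase of long-chain fatty acids, had 917.1, 186.1 and 608.9 in MDV3100, against 1286, 372.3 and 864.7 in DMSO. FHDC1, a formin that acts on actin and microtubules, had 567.4, 418.2 and 507.8 in MDV3100, against 812.6, 684.5 and 748.3 in DMSO, with no overlap. DPP4, a cell-surface peptidase, had 45.3, 31.1 and 17.8 in MDV3100, against 85.0, 55.5 and 29.4 in DMSO. STYXL2, a muscle-related pseudophosphatase, had 14.7, 42.6 and 19.0 in MDV3100, against 42.9, 71.5 and 58.9 in DMSO, again with no overlap. ELOVL7, FHDC1, DPP4 and STYXL2 all fell in the control lines, by limma adjusted p of 0.0465, 0.0315, 0.0275 and 0.00104, with responses between -1.49 (STYXL2) and -0.85 (FHDC1). OSBPL10, a sterol-binding protein, was at -0.84, -0.81 and -0.50 in the clones and 0.12 in the control lines. VWF, ZNF835, DZANK1 and HNRNPD-DT had mean responses of -0.67, -0.56, -0.62 and -0.63, and VWF and ZNF835 had treated signals below the filter value.

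**Figure D3:**
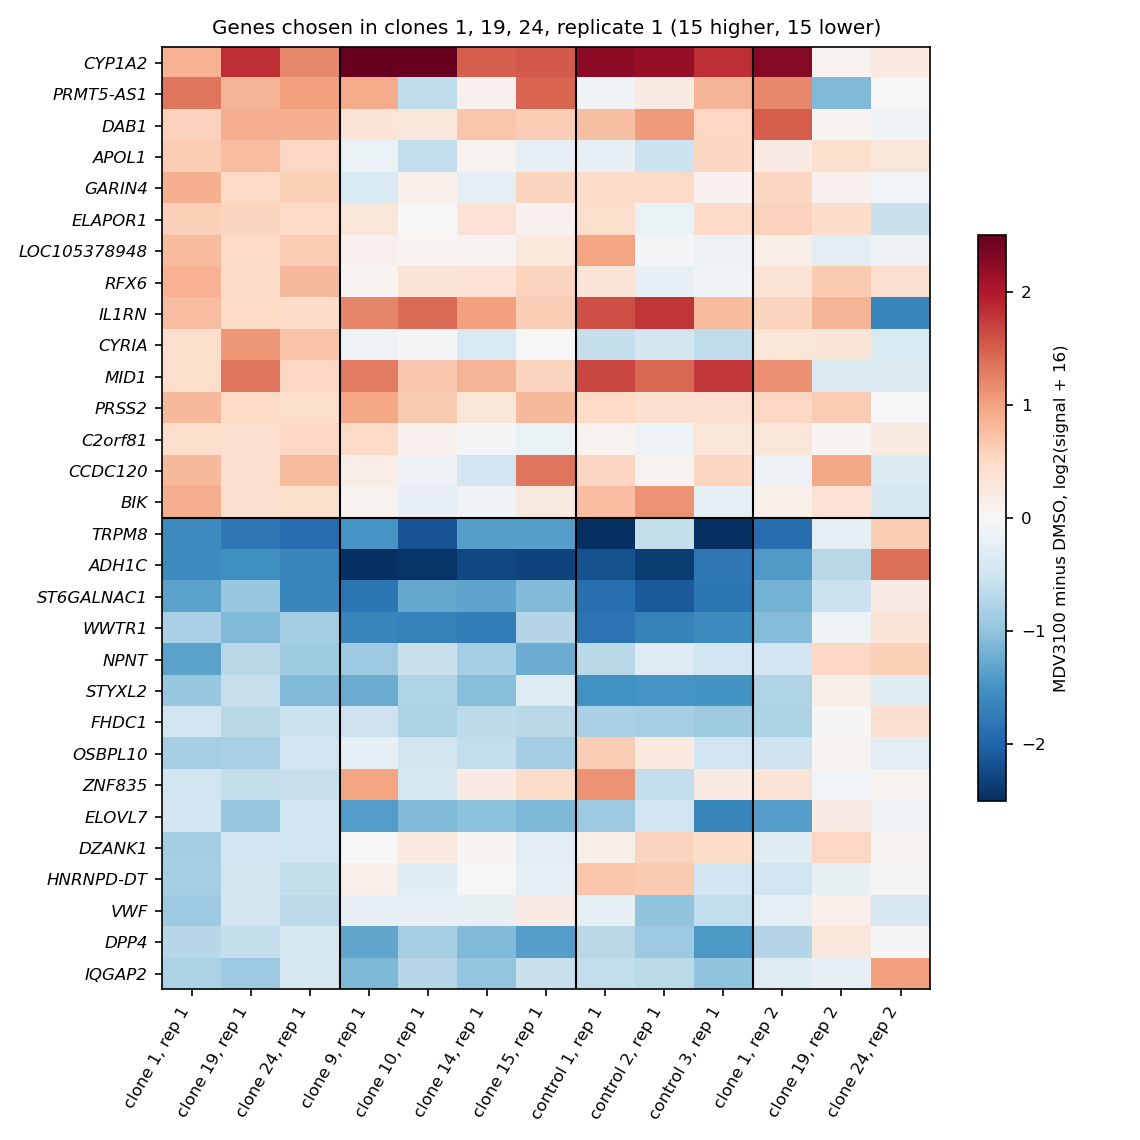
Responses of the 15 higher and 15 lower genes with the largest smallest response over clones 1, 19 and 24, as MDV3100 minus DMSO on the log2(signal + 16) scale (red higher, blue lower; the colour scale ends at 2.5 either way). Columns are the 3 clones, the other 4 clones and the 3 control lines in replicate 1, then the 3 clones in replicate 2. TRPM8, ADH1C and ST6GALNAC1 are blue in all replicate 1 columns, whereas clones 19 and 24 of replicate 2 show little of the pattern.

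Androgen-repressed genes leaned upwards. Of 13 measured, 8 were positive and 1 was negative in all 3 clones, where 12.2% and 13.9% of all genes were. The median response was 0.26, against 0.24 without clone 1 and 0.34 in the control lines. OPRK1, the kappa opioid receptor, was the member higher by 0.3 in all 3 clones, with signals of 69.9, 28.3 and 51.7 in MDV3100, against 52.8, 11.0 and 28.9 in DMSO. Its responses of 0.32, 0.71 and 0.59 stood beside a rise of 2.20 in the control lines (SE 0.18, limma adjusted p = 0.000235). DDC, which makes dopamine and serotonin, was at 0.46, 0.20 and 0.26, SERPINI1, a neural serine protease inhibitor, at 0.17, 0.31 and 0.59, and CAMK2N1, an inhibitor of a calcium-dependent kinase, at 0.43, 0.28 and 0.21. UGT2B15 was at 0.29, 0.05 and 0.44 and UGT2B17 at 0.32, 0.17 and 0.73. These enzymes are near-identical in sequence and their probes may share transcripts.

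Genes of the cell cycle were slightly but widely lower. All 30 measured DNA replication genes had a negative mean response, as 5833 of all 11853 genes did, and 18 were negative in all 3 clones, where 13.9% of all genes were. The list had a median of -0.25 (-0.30 without clone 1) against -0.68 in the control lines, where 7 fell, beside the 0.742% of all genes given above. The medians by clone were -0.07, -0.48 and -0.17, lowest in clone 19, and without clone 19 the list's median was -0.14. CDC6, which loads the replicative helicase, had signals of 124.3, 51.0 and 139.2 in MDV3100, against 188.4, 142.5 and 164.4 in DMSO. The other CDC6 probe set had responses of 0.22, -0.22 and -0.30. FAM111B, a protease of replicating cells, had 404.6, 183.1 and 318.1 in MDV3100, against 707.7, 269.1 and 366.3 in DMSO. No replication gene was lower by 0.3 in all 3 clones. MCM5, a subunit of the helicase, was at 0.15, -0.35 and -0.61, and fell by 0.94 in the control lines (SE 0.17, limma adjusted p = 0.0218). The other MCM5 probe set was at 0.26, 0.18 and -0.09 in the clones. All 25 mitosis genes likewise had a negative mean response and 16 were negative in all 3 clones, with medians of -0.19, -0.48 and -0.12 by clone, -0.25 together, -0.14 without clone 19 and -0.60 in the control lines, where 2 fell. KIF23, a kinesin of cytokinesis, had signals of 73.5, 31.7 and 61.5 in MDV3100, against 112.5, 82.6 and 78.2 in DMSO. MKI67, the Ki-67 antigen, was at 0.17, 0.08 and -0.36 and BIRC5, survivin, at 0.27, -0.13 and -0.18. Of 10 genes of recombination and Fanconi repair, BRCA1 was at -0.45, -0.84 and -0.24 and DDIAS at -0.57, -0.95 and -0.09, and the list's median was -0.24, or -0.11 without clone 19.

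Targets of NRF2, the regulator of the oxidative stress response, had a median of 0.17 over 11 measured genes, with 5 positive and 1 negative in all 3 clones, where 12.2% and 13.9% of all genes were. The list's median was 0.10 without clone 24, 0.11 in the control lines and -0.10 in the clones' replicate 2 arrays. HMOX1, heme oxygenase, was at 0.32, 0.50 and 0.19 and AKR1C2, which reduces steroids, at 0.16, 0.43 and 0.44. AKR1C1 and AKR1C3 were at 0.45, 0.20 and 0.20 and 0.34, 0.27 and 0.13, and these near-identical enzymes may share probes. Mitochondrial respiratory chain genes differed by clone, with medians of 0.30, 0.07 and -0.06. IGFBP3, a binding protein of insulin-like growth factors, was higher in each clone by its brightest probe set, at 0.41, 0.73 and 0.50. Its other probe set was at -0.21, 0.60 and 0.54. The lists for unfolded protein stress, amino acid transport, glucocorticoid response, sterol synthesis, hypoxia, p53, immediate early and interferon genes had medians between -0.06 and 0.06, against 0.00 over all genes. These are medians of the clones' mean responses, and some of these lists differed by clone. Interferon genes had medians of 0.20, -0.14 and -0.02, unfolded protein stress genes 0.16, 0.09 and -0.02 and hypoxia genes 0.05, -0.13 and -0.03. ABCG2, a drug efflux pump, rose by 0.97 in the control lines (SE 0.19, limma adjusted p = 0.0347) and was at -0.19, 0.27 and -0.26 in the clones.

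**Figure D4:**
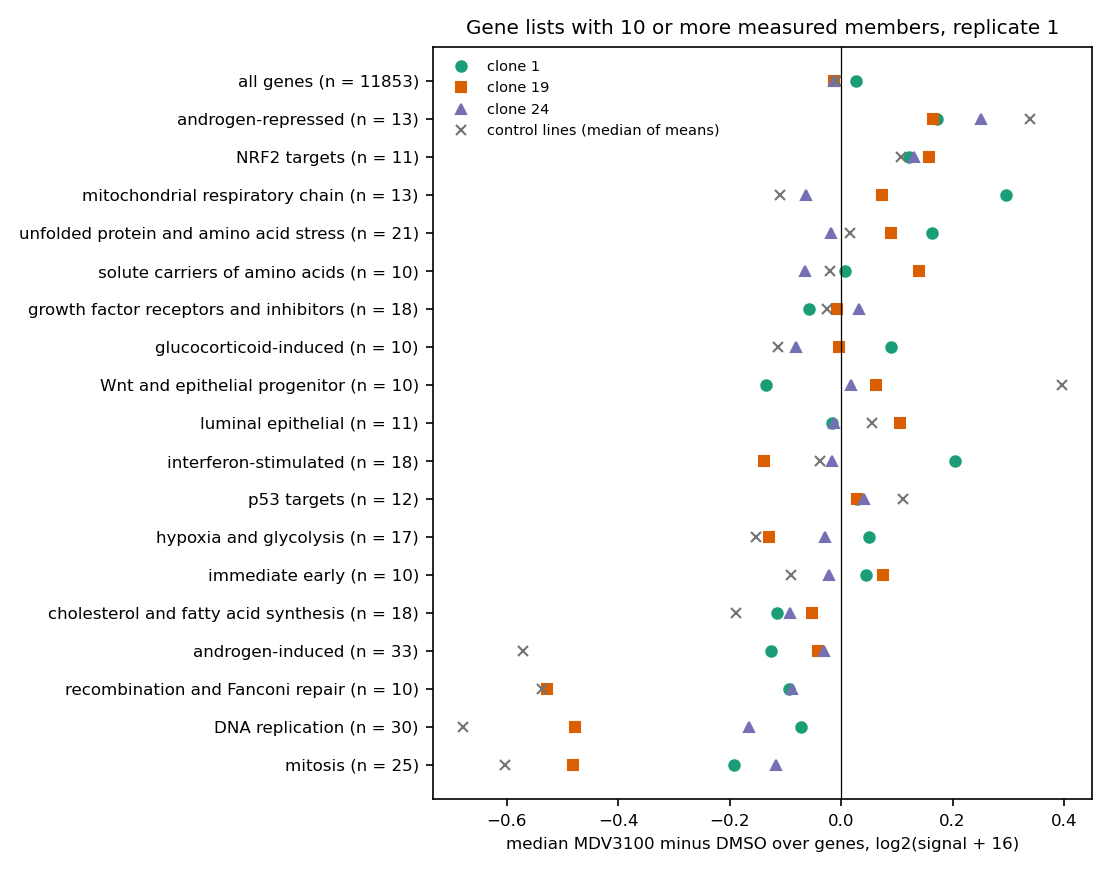
Median response over the members of each gene list with 10 or more measured members in replicate 1, as MDV3100 minus DMSO on the log2(signal + 16) scale, with all genes at the top. Coloured symbols are clones 1, 19 and 24, and crosses are the median over genes of the control lines' mean response. By the median of the clones' mean response, the replication, mitosis and repair lists lie lowest, with clone 19 furthest left. In clone 1 the androgen-induced list, at -0.13, lies below the replication list at -0.07 and the repair list at -0.09. The androgen-induced list is at -0.04 in clone 19, -0.03 in clone 24 and -0.57 in the control lines.

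Genes that answered the drug in the control lines gave a wider view. In replicate 1, 88 genes fell (0.742%) and 52 rose (0.439%) in the control lines. The 88 had a median response of -0.95 there, and of -0.11, -0.31 and -0.20 in clones 1, 19 and 24, against -0.50, -0.51, -0.65 and -0.51 in clones 9, 10, 14 and 15. Of the 88, 44 were negative in all 3 clones (50%), where 13.9% of all genes were, and 3 were positive in all 3. The 9 that were also lower by 0.3 in all 3 clones were ADH1C, DPP4, ELOVL7, FHDC1, HES6, ST6GALNAC1, STYXL2, TRPM8 and WWTR1. They make up 10.2% of the 88 and 23.1% of the 39 lower genes. The 52 had a median of 1.02 in the control lines and of 0.02, 0.12 and 0.23 in the 3 clones. Of these, 17 were positive in all 3 clones (32.7%), where 12.2% of all genes were, and CYP1A2, IL1RN, MID1 and OPRK1 were higher by 0.3, which is 7.69% of the 52 and 8.89% of the 45 higher genes. In size, 15 of the 88 and 1 of the 52 reached at least 0.5 times the control response in the clones' mean. The control values here come from the arrays that chose the genes, which favours large control responses. In replicate 2 the 88 had medians of -0.92, -0.18 and -0.49 in the arrays labelled controls 1, 2 and 3. The 52 had medians of 0.77, 0.11 and 0.84 there. Control 3 mattered to this view. When control 3 was left out, 1876 genes passed in the other control lines, and the medians in the clones were -0.03 for those that fell and -0.04 for those that rose.

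**Figure D5:**
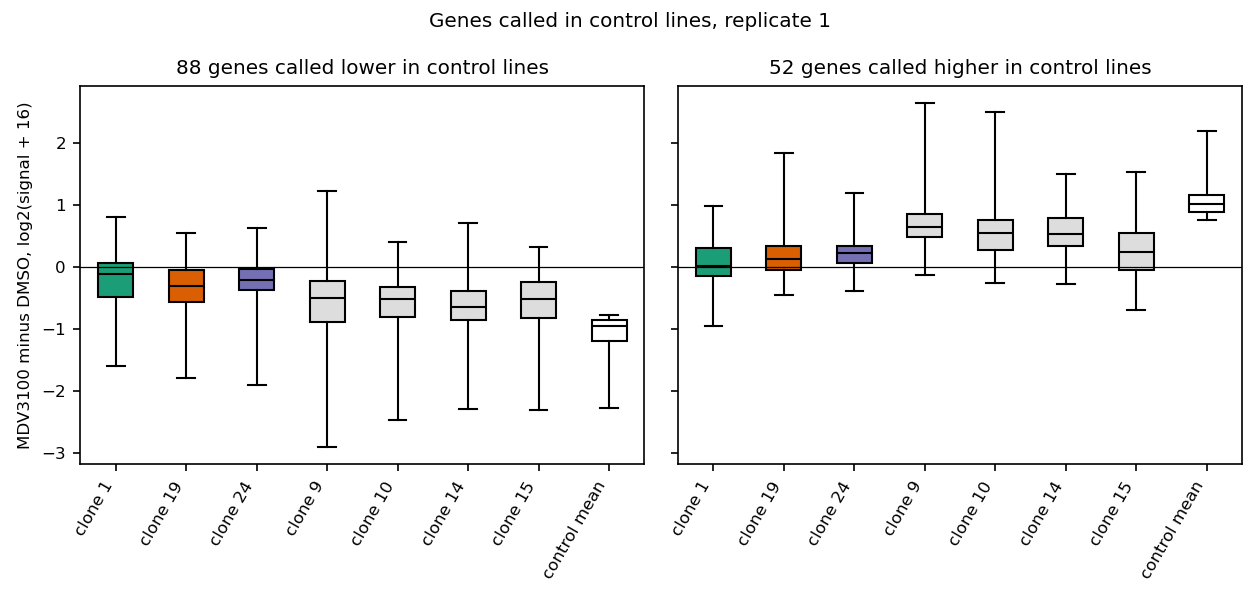
Responses of the 88 genes that fell (left) and the 52 that rose (right) in the control lines of replicate 1, as MDV3100 minus DMSO on the log2(signal + 16) scale. Boxes span the quartiles with the median as a line and whiskers reach the extremes, coloured for clones 1, 19 and 24, grey for the other clones and white for the control lines' mean, which chose the genes. Medians of the coloured boxes lie between -0.31 and 0.23.

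The 3 clones did not share 1 response. Over 11853 genes, the responses of clones 1 and 19 correlated at r = 0.32, those of clones 1 and 24 at -0.10 and those of clones 19 and 24 at 0.01. These values are across genes, which share arrays and are not replicates. Clone 1 moved most, with 21.6% of genes higher and 16.6% lower by 0.3, against 7.27% and 10.5% in clone 19 and 6.34% and 6.66% in clone 24. The MDV3100 array of clone 1 is also the one whose median signal stood above the other 5, and the part of this in the counts was not tested. Its response correlated with that of clone 15 at 0.63, clone 19's with control 3's at 0.51 and clone 24's with control 2's at 0.34. Some genes moved in 1 clone alone by the rule of size. MUC3, a mucin gene, had signals of 63.0, 27.1 and 6.6 in MDV3100, against 8.3, 21.0 and 10.7 in DMSO. PNRC1, a nuclear receptor coregulator, had 128.1, 114.8 and 181.1 in MDV3100, against 119.0, 120.0 and 79.5 in DMSO. NUF2, a kinetochore protein, had 202.3, 98.3 and 208.3 in MDV3100, against 203.3, 204.9 and 203.8 in DMSO. Clone 1 stood apart for MUC3, clone 24 for PNRC1 and clone 19 for NUF2, each on a single pair of arrays with no replicate.

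The replicate 2 arrays labelled as clones 1, 19 and 24 did not enter the choice. No gene passed there by limma (0.00% of 11853, smallest adjusted p = 0.996), and 497 had an unadjusted p under 0.05. Of the 45 higher genes, 15 were positive in all 3 clones again, where 11.9% of all genes were, and 7 had an unadjusted p under 0.05 in that direction, with no adjusted p below 0.996. RFX6 was the clearest, at 0.34, 0.66 and 0.42 in replicate 2 (limma adjusted p = 0.996), chosen here after its values were seen. Of the 39 lower genes, 2 were negative in all 3 clones again, where 12.2% of all genes were, and 0 had an unadjusted p under 0.05. The clones differed. TRPM8 was at -1.90, -0.25 and 0.63, ADH1C at -1.41, -0.70 and 1.37, CYP1A2 at 2.30, 0.09 and 0.24 and IL1RN at 0.56, 0.84 and -1.65. The arrays labelled clone 1 had negative TRPM8 and ADH1C and positive CYP1A2 responses, but their profile matched that of clone 19 of replicate 1 best (r = 0.74, across genes), so whether labels mark the same clone in both sets cannot be told. By clone, the median of the androgen-induced list in replicate 2 was -0.22, 0.12 and 0.15, that of the androgen-repressed list 0.36, -0.16 and -0.04, that of the replication list -0.40, -0.32 and 0.09 and that of the mitosis list -0.36, -0.24 and -0.05.

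The test of whether the clones' response differed from that of others was made in replicate 2 alone. Against the control lines, 0 of 11853 genes passed limma (0.00%, smallest adjusted p = 0.97), with 603 at an unadjusted p under 0.05, and against clones 9, 10, 14 and 15 it was 0 (0.00%), with 277 unadjusted. The estimated difference from the control lines was 1.60 ± 0.39 for ST6GALNAC1, 1.52 ± 0.40 for WWTR1 and 0.81 ± 0.49 for KLK2 (estimate ± SE, n = 3 clones and 3 control lines). The limma adjusted p was 0.97 for ST6GALNAC1 and WWTR1 and 0.993 for KLK2. A weaker response of these clones than of the control lines was therefore not shown for any gene in the arrays that did not choose them. Between the 2 sets, the control lines correlated with their own labels at r = -0.33 to 0.10 and the clones at -0.51 to 0.09. Whether the same lines stand on each side of this test as in replicate 1 cannot be told.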

How the data were processed

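RNA was amplified, labelled with biotin and hybridised to Affymetrix arrays, per the labels' protocols. The authors deposited a linear signal intensity for each probe set, computed with MAS5 (version not given in the sources used here) per the submitters' processing notes. Nothing was normalized again. The members and lists were chosen with earlier results of these data known. From the deposited intensities, log2(signal + 16) was taken. Probe sets with a mean of at least 4.815 on this scale (signal 12.1), the median of all, were kept (27338 of 54675). Names came from the platform annotation, where 41097 probe sets had 1 gene, 1801 several and 11777 none, and 42 identifiers were not in the current RefSeq table. The brightest probe set stood for each of 11853 genes. Of 419 members of 28 lists, 39 had no named probe set and 60 were below the filter. Paired limma fits (limma 3.58.1, R 4.3.3) used the line as a block, with Benjamini-Hochberg adjustment over all genes and adjusted p under 0.05 as a call.

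Named genes are the 15 highest and 15 lowest by the smallest response over the clones, up to 4 members of each list, up to 3 genes per single clone, up to 5 calls per test and a fixed set, 140 in all. MDV3100 and DMSO arrays of a clone are paired by title, and their deviations from the treatment means correlated across genes at r = 0.572 to 0.806, against -0.0718 at most between clones. Tested on simulated data, the fit of the clones' replicate 2 arrays recovered 67% of changes of 1 and 89% of changes of 2 on the log2 scale, and that of the control lines in replicate 1 25% and 79%. False calls numbered 4 and 0. The replicate 2 fit of the difference from clones 9, 10, 14 and 15 recovered 73% and 92%, with 14 false calls. The simulation dealt out the genes' spreads at random. In the clones' replicate 2 fit the SE was 0.49 for ADH1C, 0.44 for TRPM8 and 0.42 for CYP1A2, and recovery of genes that variable was not measured. A limma count over the 6 chosen arrays was planned and is not given, because their contrast chose the clones. The number of arrays limits precision. Alternatives were another pseudocount (1 or 64), no filter, quantile normalization, the mean of probe sets, a variance trend with signal, no block, and leaving out each line.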

Additional observations from a re-analysis of the deposited data

Results flagged for a closer look

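In replicate 2, clone 1 lay far from the other 6 clones for 4 values. Its mean response over androgen-induced genes was -0.263, over androgen-repressed genes 0.284, for TRPM8 -1.9 and for CYP1A2 2.3. Of 32 groups of values checked for such a gap, 4 had one, where chance gives about 1 in 20. The 4 values come from 1 pair of arrays and are not separate.

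For 6 of the 140 named genes, all 3 clones moved one way and all 3 control lines the other in replicate 1, and the difference was not tested. Over all genes, 12.2% were positive and 13.9% negative in all 3 clones. In all 3 control lines 16.2% were positive and 17.3% negative. The share of all genes with opposite signs in the 2 groups was not counted, so nothing is read from the 6. By the brightest probe set, the clones' mean response minus that of the control lines was 1.59 for PMEPA1, 1.31 for CYRIA and 1.09 for KLK3. It was 0.523 for CRELD2, a chaperone-like protein of the endoplasmic reticulum, -0.57 for CYP3A5, a drug-metabolising cytochrome, and -1.01 for DZANK1. Another CYP3A5 probe set was at 0.15, 0.02 and 0.00 in the clones, and a further 1 was negative in each. Another PMEPA1 probe set was at 0.11, 0.20 and -0.05, and a further 1 was positive in each.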

How the results depend on the processing

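Of the 32 named genes higher or lower by 0.3 in all 3 clones, 0 had a mean of the other sign after quantile normalization or with probe sets averaged. Another pseudocount, no filter or leaving out a clone cannot turn the sign of genes chosen this way, so nothing is read from it there. With a pseudocount of 1 the mean of 21 of them moved by more than its SD over clones, and with 64 that of 23. Counts depended on the scale. A pseudocount of 1 gave 123 genes higher and 79 lower in all 3 clones, 88 and 2 calls in the control lines of replicates 1 and 2, and a median of 0.277 over the genes that rose in the control lines. A pseudocount of 64 gave 7 higher, 17 lower, 2 and 1 calls in the control lines, and list medians of -0.0408 (androgen-induced) and 0.204 (androgen-repressed). Without the filter 92 genes were higher, with 0 and 0 calls in the control lines and a median of 0.139 for androgen-repressed genes. The control lines of replicate 2 had 0 calls after quantile normalization, 5 with probe sets averaged and 53 with a variance trend. With no replicate block there were 2 and 0 calls in the control lines, and the genes that fell in the control lines had a median of -1.45. The block comes from the pairing of arrays by clone and replicate.

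Leaving out 1 line gave 114 to 387 genes higher and 115 to 408 lower in the remaining clones. In the control lines it gave 50 to 1876 calls in replicate 1 and 0 to 143 in replicate 2, and 0 to 1 for the difference from the control lines. The medians ran between -0.258 and -0.0252 for genes that fell in the control lines and between -0.0356 (without control 3) and 0.243 for those that rose, -0.133 to -0.0452 for androgen-induced and 0.171 to 0.243 for androgen-repressed genes. The causes were not tested. Signals near the filter value limit what dim genes can show.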
